A study of Homo sapiens with 9 samples.

Results

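Small nucleolar RNA host genes are long non-coding genes whose introns hold small nucleolar RNAs (snoRNAs). They were taken as every gene on an assembled chromosome of the deposited table whose name is SNHG followed by a number, which gave 21 genes, together with GAS5, ZFAS1, EPB41L4A-AS1 and DANCR. The 25 genes are members of a table of 45754 genes. All 25 carry the biotype lncRNA, and each of the 25 has at least 1 annotated snoRNA gene inside it on the same strand, 70 snoRNA genes in all. The rule used names and positions and no measured value, but it was chosen with earlier results of these data known.

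RNA was sequenced from 3 libraries each of cells given 10 µM RSGL for 24 h, cells given 10 µM BSGL for 24 h, and control cells given 0.1% DMSO for 24 h, the solvent. Both compounds are known here by code name, and the labels do not give their identities. The cells are labelled as H441, a non-small cell lung cancer line, but a genotype tag reads A549 for the RSGL libraries and H460 for the BSGL and control libraries, so RSGL and a possible difference of cell line cannot be told apart from the labels. The labels speak of 1 replicate being treated and do not say that libraries came from separate cultures, so the p-values measure only the spread between these libraries, which may be technical.

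Each library held between 16720414 and 18738947 fragments, as recovered from the deposited values. Of 9 lung lineage markers of H441, 0 reached 1 FPKM in 3 libraries, and their sum was 1.06 to 1.20 FPKM with RSGL, 1.36 to 1.59 FPKM with BSGL and 1.46 to 2.29 FPKM in control. NKX2-1, the lung lineage transcription factor, was at most 0.0596 FPKM, and the surfactant gene SFTPB at most 0.0390 FPKM. The epithelial markers KRT8, KRT18 and CDH1 were present, while EPCAM was at most 0.719 FPKM. The summed level of the 4 epithelial markers was 736 to 775 FPKM with RSGL, 1054 to 1104 FPKM with BSGL and 1063 to 1091 FPKM in control, and that of 5 fibroblast markers, of which COL1A1 and LUM passed, was 5.12 to 5.22 FPKM with RSGL, 6.85 to 7.39 FPKM with BSGL and 6.71 to 7.51 FPKM in control. Of 4 leukocyte and 3 endothelial markers, 0 passed. All 3 sums were lower with RSGL than in control, and their part in any change of a host gene was not tested.

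A host gene is transcribed and spliced, and the introns are trimmed to snoRNAs, which guide chemical modification or cleavage of ribosomal and other RNAs. The joined exons often hold only short reading frames, and for GAS5 and several relatives the spliced RNA is known to be degraded by nonsense-mediated decay (NMD), a translation-dependent route. GAS5 (growth arrest-specific 5) was first described as an RNA that accumulates when growth stops. Several host genes begin with a terminal oligopyrimidine (TOP) tract, a C followed by more C or T bases, which ties translation of an RNA to growth signals.

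To show this start, sequences are given for the host genes called for RSGL against control by the test described below. The first 50 transcribed bases are printed, with any unbroken run of C and T from the first base in capitals. They come from RefSeq on GRCh38.p14, except GAS5, which is from GENCODE 29 on GRCh38, because the RefSeq start lies far upstream of the start in the deposited table and the GENCODE transcript GAS5-221 starts at the same base as the table. The RefSeq start also differs from the deposited one for ZFAS1 (464 bases downstream), SNHG4 (349 bases downstream), SNHG17 (47 bases downstream), DANCR (upstream) and SNHG1 (3 bases downstream). SNHG15 and SNHG6 are not shown, and SNHG5, the most abundant member, is added.
GAS5, chr1:173867938-173867987, minus strand: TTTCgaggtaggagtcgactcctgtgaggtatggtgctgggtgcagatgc
ZFAS1, chr20:49278642-49278691, plus strand: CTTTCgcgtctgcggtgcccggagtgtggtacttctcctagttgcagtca
SNHG5, chr6:85678684-85678733, minus strand: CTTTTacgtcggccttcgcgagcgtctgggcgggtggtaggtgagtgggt
SNHG17, chr20:38435279-38435328, minus strand: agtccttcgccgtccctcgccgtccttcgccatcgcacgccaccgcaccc
EPB41L4A-AS1, chr5:112160526-112160575, plus strand: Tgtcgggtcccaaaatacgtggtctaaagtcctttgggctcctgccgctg
SNHG8, chr4:118278762-118278811, plus strand: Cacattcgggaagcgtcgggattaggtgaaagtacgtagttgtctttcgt
SNHG16, chr17:76557764-76557813, plus strand: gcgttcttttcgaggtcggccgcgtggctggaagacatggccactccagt
SNHG1, chr11:62855836-62855885, minus strand: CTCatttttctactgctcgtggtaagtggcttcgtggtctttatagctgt
SNHG4, chr5:139274101-139274150, plus strand: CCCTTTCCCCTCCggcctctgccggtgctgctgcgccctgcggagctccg
DANCR, chr4:52712394-52712443, plus strand: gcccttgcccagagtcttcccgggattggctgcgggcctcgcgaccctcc
SNHG10, chr14:95534823-95534872, minus strand: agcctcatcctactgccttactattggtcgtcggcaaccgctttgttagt
SNHG21, chr15:82750564-82750613, plus strand: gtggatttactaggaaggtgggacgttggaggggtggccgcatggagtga

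A promoter window was matched for 20 of the 25 members. In 7 of these 20 (35%) the RefSeq start was a C at the head of a run of at least 4 C or T bases, against 5.45% of the 27305 windows of all genes. The 7 are SNHG4, SNHG5, SNHG7, SNHG12, SNHG18, SNHG19 and ZFAS1. Over the 250 bases before and 50 after the RefSeq start, on both strands, CACGTG (the E-box) was present in 1 of 20 members, SNHG7, against 7.43% of all windows. TGACGTCA (the cyclic AMP response element) was in 0 of 20, against 1.98%, and TGATGCAA (a composite C/EBP and ATF element) was in 0 of 20, against 0.923%. A match of letters is a description of the window, not evidence of a site, and an absent match says only that these letters are not in this window. For GAS5, ZFAS1 and SNHG4 the window around the RefSeq start does not reach the start in the deposited table. The counts of C starts and of motifs therefore do not describe the deposited start of these genes.

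Levels are given as FPKM, fragment counts scaled to gene length and to library depth, and differences as the difference of group means of log2(FPKM + 1), which understates the change of genes of low level. Testing was limited to genes that reached 1 FPKM in 3 or more of the 9 libraries. Of the 25 host genes 22 passed, and all 22 reached 1 FPKM in each of the 3 control libraries. SNHG24 (0.419 to 1.34 FPKM) and SNHG22 (0.161 to 0.944 FPKM) stayed under the filter, and SNHG18 was at 0 in all 9 libraries. The host genes took 0.187 ± 0.00955% of all fragments with RSGL, 0.145 ± 0.00589% with BSGL and 0.139 ± 0.00707% in control (SD, n = 3 each). GAS5 alone made up 20.4 ± 2.64% of the host gene fragments with RSGL, 10.6 ± 0.290% with BSGL and 10.8 ± 1.01% in control. Without GAS5 the share of all fragments was 0.149 ± 0.0125% with RSGL, 0.129 ± 0.00529% with BSGL and 0.124 ± 0.00771% in control, and the lowest RSGL library, at 0.136%, lay above the highest control library, at 0.131%. As summed FPKM, which weights short genes more, the host genes without GAS5 overlapped, at 1440 to 1756 FPKM with RSGL, 1340 to 1486 FPKM with BSGL and 1189 to 1475 FPKM in control.

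In control libraries SNHG5 was highest at 482 FPKM on average, followed by GAS5 at 220.6 FPKM, ZFAS1 at 116 FPKM and SNHG1 at 113 FPKM. SNHG5 lay above GAS5 in every control library and GAS5 above ZFAS1, whereas from ZFAS1 through SNHG1, SNHG6 and SNHG19 to SNHG8 each gene overlapped the next. Of the 21 pairs of neighbours in the control order, 10 overlapped. With RSGL, GAS5 (519 to 610 FPKM) overlapped SNHG5 (525 to 699 FPKM).

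**Figure D1:**
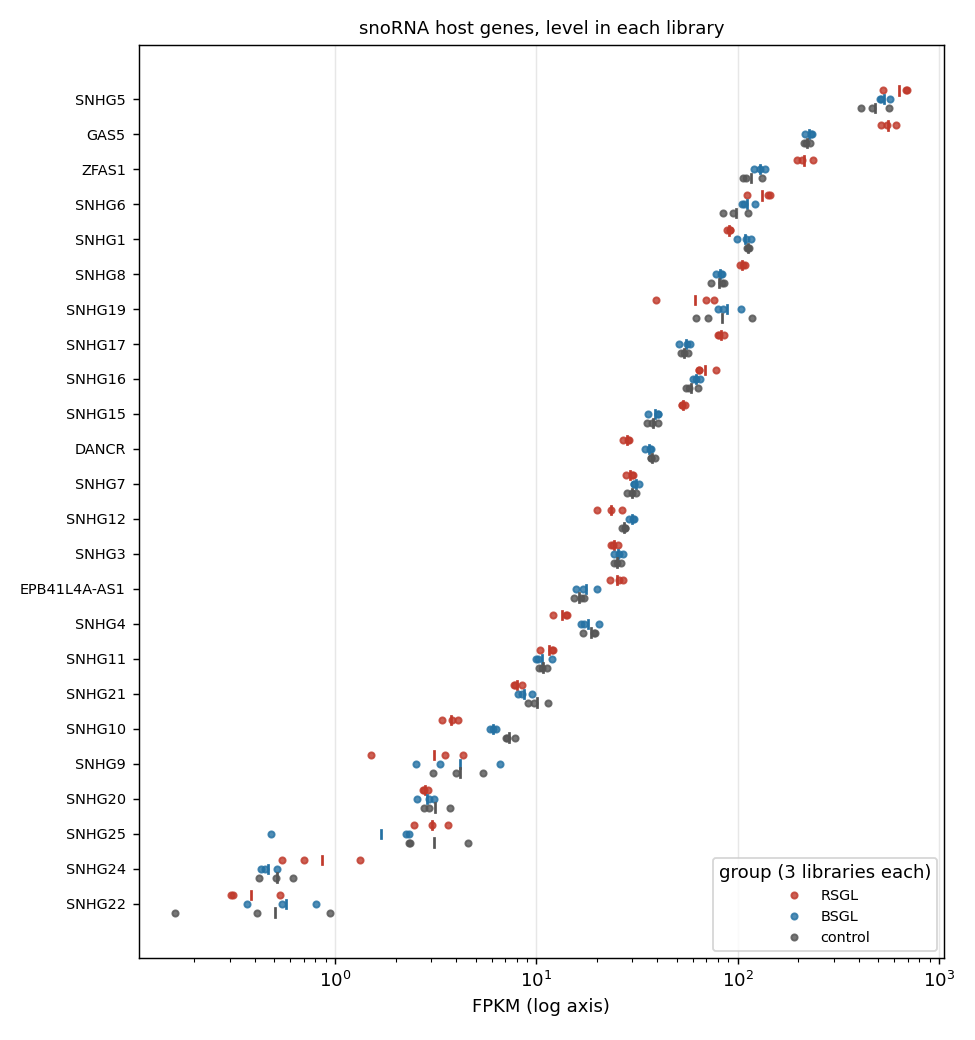
Level of each detected host gene in each library (points, FPKM on a log axis) with the group mean as a short vertical line; RSGL is above BSGL and control within each gene, 3 libraries per group, and SNHG18, at 0 throughout, is left out. The GAS5 libraries of RSGL, at 519 to 610 FPKM, sit apart from those of BSGL and control, at 213 to 236 FPKM.

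Cells given RSGL held more GAS5, ZFAS1, EPB41L4A-AS1, SNHG17, SNHG15 and SNHG8 RNA than control cells, and less SNHG10, SNHG4, DANCR, SNHG1 and SNHG21 RNA. SNHG6 and SNHG16 were also called higher. These calls were lost in 6 of 20 alternative fits for SNHG6, whose libraries overlapped, and in 11 of 20 for SNHG16. The largest difference was that of GAS5, 1.34 ± 0.0586 (SE) on the log2(FPKM + 1) scale. In all, 13 of 22 host genes were called, 8 higher and 5 lower, by limma with a Benjamini-Hochberg adjusted p under 0.05. Over all 12775 tested genes 54.8% were called, 27.2% higher and 27.6% lower, so the 13 of 22 is close to the background and is no result about the family. Over the other 769 lncRNA genes tested, 39.1% were called. The median difference of the 22 host genes was -0.0041, beside -0.00085 over all tested genes, and the libraries of the 2 groups did not overlap for 12 of 22 host genes, beside 61.2% of all tested genes. In bulk RNA, a change in the share of cells that make an RNA and a change in RNA per cell cannot be told apart.

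**Figure D2:**
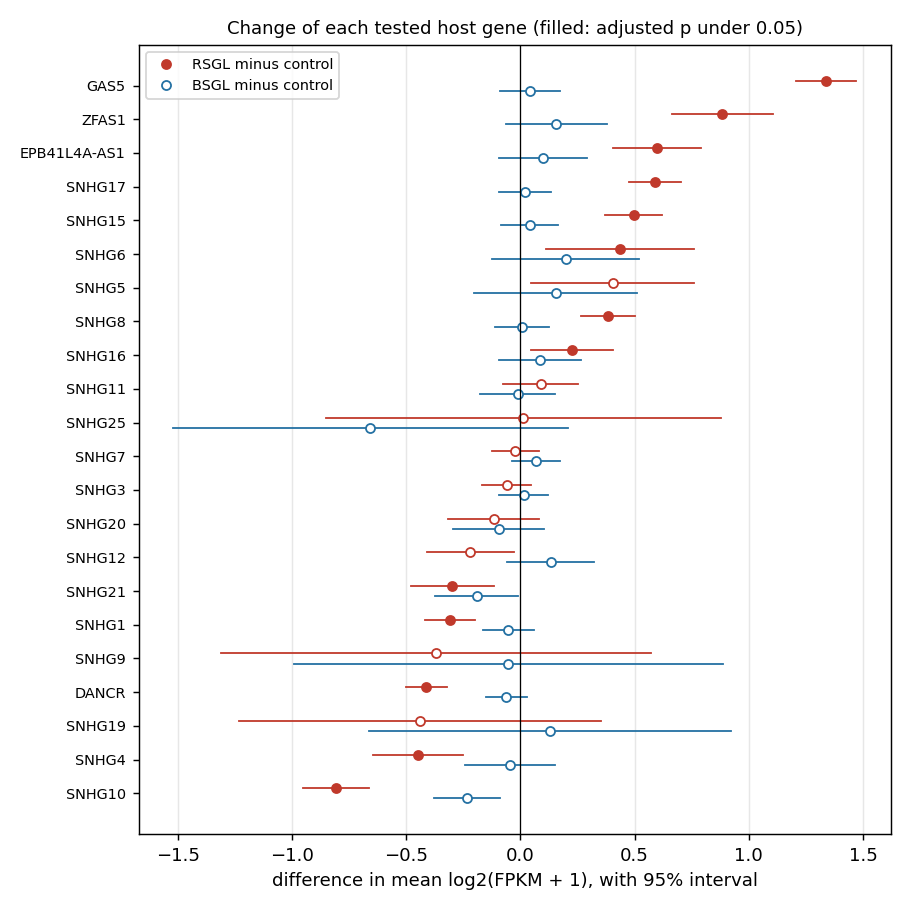
Difference in mean log2(FPKM + 1) for each of the 22 tested host genes with its 95% interval, RSGL minus control above BSGL minus control; filled points have an adjusted p under 0.05. RSGL differences run from -0.81 (SNHG10) to 1.34 (GAS5), and no BSGL point is filled.

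GAS5 (chr1:173863901-173867987, minus strand; length of 632 bases in the table) stood at 610, 553 and 519 FPKM in the 3 RSGL libraries, at 231, 215 and 236 FPKM in the 3 BSGL libraries, and at 219.6, 229 and 213 FPKM in the 3 control libraries. Every RSGL library was above every BSGL and control library, and the BSGL and control libraries overlapped. The RSGL mean was 560.6 ± 45.8 FPKM and the control mean 220.6 ± 8.03 FPKM (SD, n = 3 each), a ratio of 2.54, and the difference of 1.34 on the log2(FPKM + 1) scale had a 95% interval of 1.21 to 1.47 (limma adjusted p 6.36e-08). Of the 12775 genes tested, 96 had a difference at or above that of GAS5, and of 791 lncRNA genes 5 did, GAS5 counted in both. The values rest on at least 2535 fragments per library. ZBTB37 starts 108 bases from GAS5 on the opposite strand without overlap and was not called (-0.10, limma adjusted p 0.241). GAS5-AS1 overlaps GAS5 on the opposite strand and stayed under the filter, at 0.669 FPKM with RSGL and 0.821 FPKM in control on average.

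ZFAS1, the host of a C/D snoRNA cluster beside the ZNFX1 promoter, stood at 198, 208 and 238 FPKM with RSGL, at 137, 121 and 129 FPKM with BSGL, and at 109.9, 107 and 132 FPKM in control. The RSGL libraries were again all above the others. The difference from control was 0.88 ± 0.0958 (SE; limma adjusted p 8.80e-05). ZNFX1 overlaps ZFAS1 on the opposite strand and starts 66 bases from it, and its own level was 14.2 ± 0.706 FPKM with RSGL and 16.5 ± 0.435 FPKM in control, a difference of -0.20 (adjusted p 0.00339), opposite in sign to that of ZFAS1. The sources used here do not give the strand setting of the counting, so for ZFAS1 and other overlapping genes reads of the 2 strands cannot be told apart.

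SNHG17 stood at 79.9, 81.3 and 85.9 FPKM with RSGL, at 51.3, 56.2 and 58.2 FPKM with BSGL, and at 54.2, 52.4 and 56.7 FPKM in control. SNHG15 stood at 54.9, 52.8 and 53.3 FPKM with RSGL, at 40.4, 36.0 and 40.4 FPKM with BSGL, and at 40.3, 37.7 and 35.5 FPKM in control. In both genes the RSGL libraries were the 3 highest, with differences from control of 0.59 ± 0.0510 (SE; limma adjusted p 6.94e-06) for SNHG17 and 0.50 ± 0.0558 (SE; adjusted p 4.53e-05) for SNHG15. EPB41L4A-AS1, an antisense transcript at the 3' side of EPB41L4A that holds an H/ACA snoRNA, stood at 23.2, 25.9 and 27.0 FPKM with RSGL, at 17.2, 15.8 and 20.02 FPKM with BSGL, and at 15.3, 17.2 and 16.6 FPKM in control. Its RSGL libraries did not overlap the others, and the difference from control was 0.60 ± 0.0852 (SE; adjusted p 0.000265). EPB41L4A, which overlaps it on the opposite strand, was at 1.48 ± 0.129 FPKM with RSGL and 1.55 ± 0.0716 FPKM in control and was not called.

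SNHG8 stood at 106, 103 and 109 FPKM with RSGL, at 82.4, 78.4 and 83.5 FPKM with BSGL, and at 83.7, 74.0 and 85.5 FPKM in control. The RSGL libraries were the highest, by a smaller margin, and the difference was 0.38 ± 0.0528 (SE; limma adjusted p 0.000176). SNHG16 stood at 64.2, 64.5 and 78.6 FPKM with RSGL, at 64.8, 62.0 and 60.4 FPKM with BSGL, and at 63.4, 57.2 and 55.7 FPKM in control. RSGL replicate 3 was the highest of the 9, while the other 2 RSGL libraries lay just above the highest control library and overlapped BSGL. The difference of 0.23 (adjusted p 0.0368) was not called in 11 of 20 alternative fits, among them those without RSGL replicate 3, BSGL replicate 2 or 3, or control replicate 2 or 3.

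Among the lower host genes the largest difference was that of SNHG10. SNHG10, which shares a promoter region with GLRX5 on the opposite strand, stood at 3.40, 4.11 and 3.83 FPKM with RSGL, at 6.11, 5.86 and 6.33 FPKM with BSGL, and at 7.16, 7.04 and 7.86 FPKM in control. Every RSGL library was below every other library, and the BSGL libraries were also all below the control libraries. The RSGL difference from control was -0.81 ± 0.0639 (SE; limma adjusted p 3.72e-06). GLRX5, a mitochondrial iron-sulfur cluster protein gene that starts 114 bases away, averaged 50.3 ± 2.47 FPKM with RSGL and 64.7 ± 4.60 FPKM in control and fell by 0.36 on the same scale (adjusted p 0.000512).

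SNHG1, a multi-snoRNA host, stood at 88.9, 91.4 and 92.1 FPKM with RSGL, at 117, 99.9 and 110.1 FPKM with BSGL, and at 114, 111 and 113 FPKM in control. All RSGL libraries were the lowest, and the difference was -0.31 ± 0.0491 (SE; limma adjusted p 0.000462). SLC3A2, the heavy chain of several amino acid transporters, starts 124 bases away on the opposite strand without overlap and averaged 282 ± 7.69 FPKM with RSGL and 229.7 ± 9.54 FPKM in control, a difference of 0.29 (adjusted p 7.32e-05), so the genes on either side of this start region differed from control in opposite directions. DANCR, a snoRNA host also known as a differentiation antagonist, stood at 28.8, 28.7 and 27.03 FPKM with RSGL, at 34.7, 36.7 and 37.2 FPKM with BSGL, and at 37.3, 37.1 and 38.9 FPKM in control. Its RSGL libraries were all below the rest, with a difference of -0.41 ± 0.0396 (SE; adjusted p 1.50e-05).

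SNHG4 averaged 13.5 FPKM with RSGL and 18.7 FPKM in control, a difference of -0.45 (limma adjusted p 0.00185), with no overlap of libraries. It lies on the same strand and in the same interval as MATR3, a nuclear matrix RNA-binding protein gene, which averaged 42.4 ± 2.33 FPKM with RSGL and 57.6 ± 1.37 FPKM in control and differed by -0.44 (adjusted p 1.03e-05). Reads of the shared interval could be given to either gene. SNHG21 averaged 8.02 FPKM with RSGL and 10.1 FPKM in control, a difference of -0.30 (adjusted p 0.0108).

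Of the 9 tested host genes without a call, SNHG7 (-0.02), SNHG3 (-0.06), SNHG11 (0.09) and SNHG20 (-0.12) had 95% intervals that together ran from -0.32 to 0.25 on the log2(FPKM + 1) scale. SNHG7 stood at 28.0, 30.3 and 29.8 FPKM with RSGL, at 30.7, 30.7 and 32.5 FPKM with BSGL, and at 29.9, 28.3 and 31.3 FPKM in control. The RSGL and control libraries overlapped, and the RSGL libraries were all below the BSGL libraries. SNHG3 shares its strand and interval with RCC1, the chromatin-bound exchange factor for the GTPase RAN. RCC1 averaged 25.3 ± 0.706 FPKM with RSGL and 38.8 ± 1.30 FPKM in control and fell by 0.60 (limma adjusted p 6.31e-07), while SNHG3 averaged 24.3 FPKM with RSGL and 25.3 FPKM in control. SEC14L1, in the interval of SNHG20, differed by 0.40 (adjusted p 7.71e-05). SNHG12 averaged 23.4 FPKM with RSGL, 30.01 FPKM with BSGL and 27.3 FPKM in control. Its RSGL difference from control of -0.22 (adjusted p 0.0509) was called in 5 of 20 alternatives.

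Among the 22 tested host genes the 3 shortest, SNHG25 (111 bases), SNHG9 (233 bases) and SNHG19 (357 bases), spread most between libraries of a group. Untested SNHG22 (1615 bases), under the filter, had an SD of 79.2% of its mean FPKM in control. SNHG6 (472 bases) and SNHG5 (507 bases) follow in length, with an SD of up to 14.6% of the mean FPKM for SNHG6 and up to 16.6% for SNHG5, both in control. SNHG5 stood at 525, 687 and 699 FPKM with RSGL, at 574, 509 and 514 FPKM with BSGL, and at 468, 409 and 567 FPKM in control. The highest control library was above the lowest RSGL library, and the difference of 0.40 had a 95% interval of 0.05 to 0.76 (limma adjusted p 0.0564; called in 5 of 20 alternatives). SNHG6 stood at 111, 145 and 142 FPKM with RSGL, at 123, 105 and 108 FPKM with BSGL, and at 95.4, 85.2 and 113 FPKM in control. RSGL replicate 1 and control replicate 3 crossed in SNHG6, as in SNHG5, and its difference of 0.44 (adjusted p 0.0298) was not called in 6 of 20 alternatives, among them those without RSGL replicate 2 or 3 or control replicate 1 or 2.

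SNHG19 stood at 39.4, 69.8 and 76.1 FPKM with RSGL, at 104, 84.2 and 79.7 FPKM with BSGL, and at 71.5, 62.4 and 119 FPKM in control. The control libraries alone spanned 62.4 to 119 FPKM and took in 2 of the 3 RSGL libraries, and the interval of the RSGL difference, -1.23 to 0.35, does not show that the groups are alike. SNHG9 (7 to 31 fragments per library) and SNHG25 (1 to 10 fragments per library) are too thinly covered for a difference of ordinary size to be detectable. Short genes as a class moved by library. Among 519 other tested genes of up to 400 bases, the median deviation from each gene's control mean was -0.18, -0.06 and 0.06 in the 3 RSGL libraries, 0.15, 0.01 and 0.01 in the 3 BSGL libraries, and -0.02, -0.04 and 0.04 in the 3 control libraries, on the log2(FPKM + 1) scale. With each library's trend on gene length removed, an alternative chosen after seeing the data, the RSGL difference from control was 0.40 for SNHG5 (limma adjusted p 0.00502), which was then called, 0.43 for SNHG6 (adjusted p 0.00108) and -0.43 for SNHG19 (adjusted p 0.217). In that fit SNHG12 was also called (-0.22, adjusted p 0.037) and SNHG16 was not (0.21, adjusted p 0.0519), which gave 14 called host genes, 8 higher and 6 lower.

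**Figure D3:**
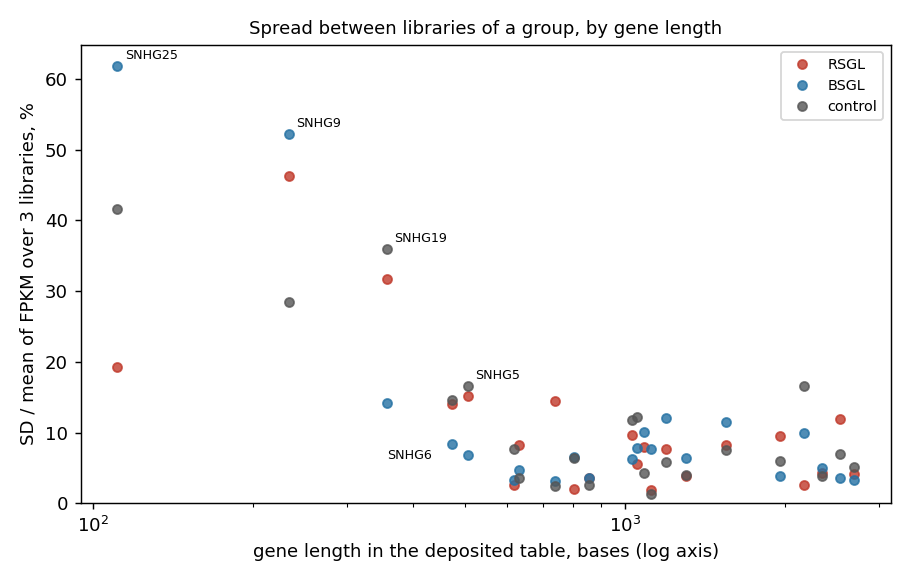
SD as a percentage of the mean FPKM over the 3 libraries of each group, against gene length (bases, log axis), for the 22 tested host genes. The 5 members of 507 bases or fewer are named. SNHG25, SNHG9 and SNHG19 hold the largest spreads.

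BSGL, at the same dose and time, was set against the same control libraries. By limma, 0 of 22 host genes were called, where 11 of 12775 genes (0.0861%) were called in all. At an unadjusted p under 0.05 there were 2 host genes, SNHG10 (difference -0.23, adjusted p 0.386) and SNHG21 (-0.19, adjusted p 0.719), beside 6.71% of all tested genes, and limma-voom on the recovered fragments called 0 of 22. The libraries of BSGL and control did not overlap for SNHG10, SNHG12 and SNHG25, 3 of 22, beside 12.8% of all tested genes. The GAS5 difference was 0.04, with a 95% interval of -0.09 to 0.17. The intervals for SNHG17 (-0.09 to 0.13), SNHG15 (-0.08 to 0.17) and DANCR (-0.15 to 0.03) were of like width, while that of ZFAS1 reached 0.38 and that of SNHG6 0.52, so smaller differences in those genes were not detectable with 3 libraries a group.

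RSGL and BSGL were also compared with each other at 10 µM and 24 h, the only pair of compounds. Of 22 host genes 11 were called, 6 higher and 5 lower with RSGL, where 54% of all tested genes were called, 26.5% higher and 27.5% lower, again close to the background. The differences were 1.30 for GAS5 (limma adjusted p 8.61e-08), 0.73 for ZFAS1, 0.57 for SNHG17, 0.50 for EPB41L4A-AS1, 0.45 for SNHG15 and 0.37 for SNHG8. On the lower side they were -0.57 for SNHG10, -0.40 for SNHG4, -0.35 for SNHG12 (adjusted p 0.00622), -0.35 for DANCR and -0.26 for SNHG1. The libraries did not overlap for 14 of 22 host genes, beside 61.2% of all tested genes. These include SNHG19 and SNHG7, lower with RSGL, and SNHG25, higher with RSGL, none of which was called. The 3 comparisons share libraries in pairs, so their values stand side by side and are not independent of each other.

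The snoRNA genes inside the hosts were counted as genes of their own, with lengths of 43 to 421 bases. Fragments in these short intervals can come from finished snoRNAs or from unspliced introns, and these cannot be told apart. How well the libraries kept RNA this short was not tested. Of the 70 snoRNA genes 14 were at 0 in all libraries and 47 were tested. By limma with RSGL, 0 of the 47 were higher than control and 2 were lower, beside 27.2% and 27.6% of all tested genes. Most tested genes are longer and spread less, so those shares are not a background of like genes. The median difference of the 47 snoRNA genes was -0.19, beside -0.08 for the 519 tested genes of up to 400 bases outside the family. With BSGL 0 of 47 were called in either direction by limma, beside 0.0861% of all tested genes. At an unadjusted p under 0.05 there were 0 higher and 2 lower with RSGL, and 3 in either direction with BSGL, and limma-voom called 2, both lower, with RSGL and 0 with BSGL. For RSGL against BSGL limma called 3 of 47, beside 54% of all tested genes. SNORD25 and SNORD50B were lower, and SNORA9, in SNHG15, was higher (0.41, limma adjusted p 0.00662). In that comparison limma-voom called 3, all lower. The 519 tested genes of up to 400 bases outside the family, which take in most of these snoRNA genes, had a median SD of 0.42 on the log2(FPKM + 1) scale between control libraries, against 0.06 for genes over 1500 bases.

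Inside GAS5, the 11 snoRNA genes together held 14.3 ± 2.78 FPM (fragments per 1000000 fragments of the library) with RSGL, 15.3 ± 1.97 FPM with BSGL and 14.5 ± 1.47 FPM in control (SD, n = 3 each), with full overlap. GAS5 itself held 380.2 FPM with RSGL, 153 FPM with BSGL and 150.0 FPM in control. The ratio of RSGL to control was 2.53 for GAS5 and 0.983 for the snoRNA genes inside it. GAS5 fragments per snoRNA fragment numbered 36.4, 25.5 and 21.0 in the RSGL libraries, 8.88, 10.2 and 11.2 in the BSGL libraries, and 10.1, 12.1 and 9.09 in the control libraries, so every RSGL library lay above the rest. Of 10 snoRNA genes of GAS5 that were tested, 0 were called by limma, 0 reached an unadjusted p under 0.05, limma-voom called 0, and the lowest adjusted p was 0.258. SNORD80, the most abundant of them, stood at 78.2, 92.1 and 84.1 FPKM with RSGL, at 105, 99.1 and 91.1 FPKM with BSGL, and at 103, 80.4 and 78.5 FPKM in control.

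Among 8 hosts with at least 100 snoRNA fragments in both the RSGL and the control group, the ratio of host to snoRNA fragments was higher in every RSGL library than in every control library for 3, GAS5, ZFAS1 and SNHG15, and overlapped for 5. Of these 3 hosts only GAS5 also had every RSGL library above every BSGL library. With BSGL the ZFAS1 ratio (43.6, 52.7 and 73.5) overlapped that of the RSGL libraries (139, 61.0 and 66.7). SNHG15 had 17.1, 20.0 and 22.97 host fragments per snoRNA fragment with RSGL, 20.3, 19.2 and 19.0 with BSGL, and 12.5, 12.1 and 11.8 in control, so its ratio was above control with both compounds. ZFAS1 had a ratio of RSGL to control of 1.85 for the host and 1.09 for its 3 snoRNA genes, and SNHG15 had 1.42 for the host and 0.871 for its snoRNA gene. SNHG1 had 0.804 for the host and 0.740 for its 8 snoRNA genes, and SNHG12 had 0.857 and 0.804 for its 4. SNHG17 had 1.51 for the host and 1.11 for its 4 snoRNA genes, with overlap in the ratio of host to snoRNA fragments. Among the RSGL libraries, replicate 1 had the highest GAS5 and ZFAS1 ratios, for ZFAS1 on 29 snoRNA fragments, and the lowest SNHG15 ratio. Short genes as a class were also lowest in RSGL replicate 1, and the part of that in these ratios was not tested. The ratios are descriptions and were not tested.

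**Figure D4:**
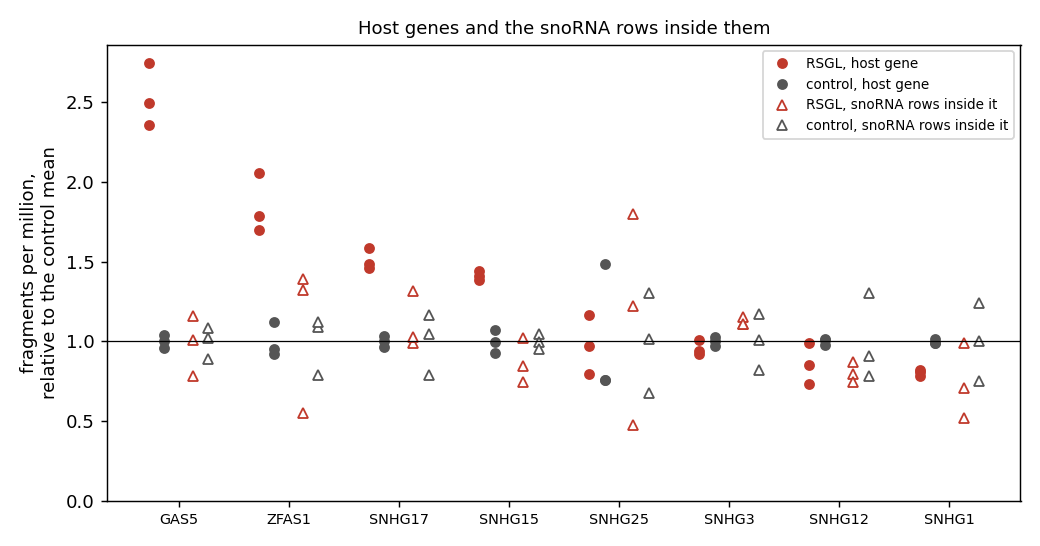
FPM relative to the control mean for 8 host genes (filled circles) and for the summed snoRNA genes inside each (open triangles), RSGL in red left of control in grey, 3 libraries each. For GAS5 the host circles of RSGL lie between 2.36 and 2.75 while its snoRNA triangles lie on both sides of 1.

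The 2 snoRNA genes lower with RSGL were SNORD25, in SNHG1, and SNORD50B, in SNHG5. SNORD25 is shown because it is the called snoRNA gene with more coverage (704 fragments over all libraries). Its sequence comes from GENCODE 29 on GRCh38 and reaches 1 base beyond the deposited interval at each end. Capitals mark TGATGA at base 8 and CTGA at base 60, letters that fit box C and box D, the elements after which C/D snoRNAs are named.
SNORD25, chr11:62855564-62855632, minus strand: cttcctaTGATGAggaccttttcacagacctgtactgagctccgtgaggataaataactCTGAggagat

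SNORD25 stood at 35.4, 44.2 and 61.3 FPKM with RSGL, at 77.4, 62.5 and 67.2 FPKM with BSGL, and at 65.2, 70.0 and 65.9 FPKM in control. Its RSGL libraries were all below the others and spread widely, and the difference from control was -0.54 ± 0.188 (SE; limma adjusted p 0.0462). Genes of up to 400 bases outside the family deviated from control by a median of -0.18, -0.06 and 0.06 in these 3 RSGL libraries. The part of that shift in the SNORD25 difference was not tested. SNORD50B had 2, 1 and 4 fragments with RSGL, 17, 9 and 10 with BSGL, and 6, 9 and 14 in control, a difference of -1.56 (adjusted p 0.0158) that rests on 72 fragments in all.

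Genes that act on host RNAs were read from lists of related genes. Of 16 NMD factors tested, 1 was higher and 9 were lower with RSGL than in control, with a median difference of -0.14, a share called not far from the 54.8% over all tested genes. EIF4A3, an exon junction complex helicase, averaged 84.6 ± 3.55 FPKM with RSGL and 106 ± 1.13 FPKM in control (-0.32, limma adjusted p 3.95e-05). RBM8A, its partner in the complex, differed by -0.30 and UPF1, the central NMD helicase, by -0.30. Of 9 known NMD targets outside the family, 6 were higher and 0 lower, with a median of 0.85. Over all tested genes 27.2% were higher and 27.6% lower, with a median of -0.00085, the reference for both lists. DDIT3, which encodes the stress factor CHOP, averaged 61.5 ± 0.933 FPKM with RSGL and 14.0 ± 1.78 FPKM in control (2.06), GADD45A, a growth arrest gene, differed by 1.25 and UPP1, uridine phosphorylase, by 1.02. Several of these targets are also known stress response genes, and the list was made with earlier results of these data known, so its direction is not independent evidence on decay of the host RNAs.

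Of 18 snoRNP core and assembly proteins, which package snoRNAs, 2 were higher and 9 lower with RSGL, with a median of -0.11. The share called in either direction, here and for the protein-coding snoRNA hosts, is near the 54.8% over all tested genes. That share is no result about either list. Over all tested genes 27.2% were higher and 27.6% lower, with a median of -0.00085, and the split by direction within each list was not tested. NOP56, a C/D core protein and itself a snoRNA host, averaged 173 ± 0.718 FPKM with RSGL and 224 ± 2.72 FPKM in control (-0.37, limma adjusted p 4.00e-06), and its partner NOP58 differed by -0.34. NOP10, an H/ACA core protein, rose by 0.34 (adjusted p 0.000675). Of 41 tested protein-coding snoRNA hosts, 15 were higher and 10 lower, with a median of 0.07. HSPA9, a mitochondrial chaperone gene, and RPL12, a ribosomal protein gene, each rose by 0.41, and EIF4G1, a translation initiation scaffold, fell by 0.46.

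Because host genes with a TOP start share that start with the genes of the translation machinery, those were read as well. Of 78 tested cytosolic ribosomal protein genes, 24 were higher and 2 lower with RSGL, with a median of 0.13, fewer calls than the 54.8% over all tested genes. The count rests on single libraries. It was 13 without control replicate 1, 14 without control replicate 2, 16 without RSGL replicate 3 and 43 without control replicate 3. The 2 lower genes were RPS26 (-0.39) and RPS10 (-0.73, on only 4.32 FPKM with RSGL and 7.84 FPKM in control), and ribosomal protein genes have near-identical copies among which the counting could split reads. Of 16 translation factors with TOP mRNAs, 8 were higher and 3 lower, with a median of 0.09. Over all tested genes 27.2% were higher and 27.6% lower. EEF1A1, the elongation factor, rose by 0.36, TPT1 rose by 0.27, and HNRNPA1, an RNA-binding protein gene, fell by 0.44. With BSGL, 0 of the 151 genes in the 6 lists were called by limma or by limma-voom, and 2 had an unadjusted p under 0.05. The median of the ribosomal protein genes was 0.064 for BSGL against control, beside 0.0054 over all tested genes. For RSGL against BSGL it was 0.055, beside -0.0056, so the median of 0.13 from control is not particular to RSGL.

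**Figure D5:**
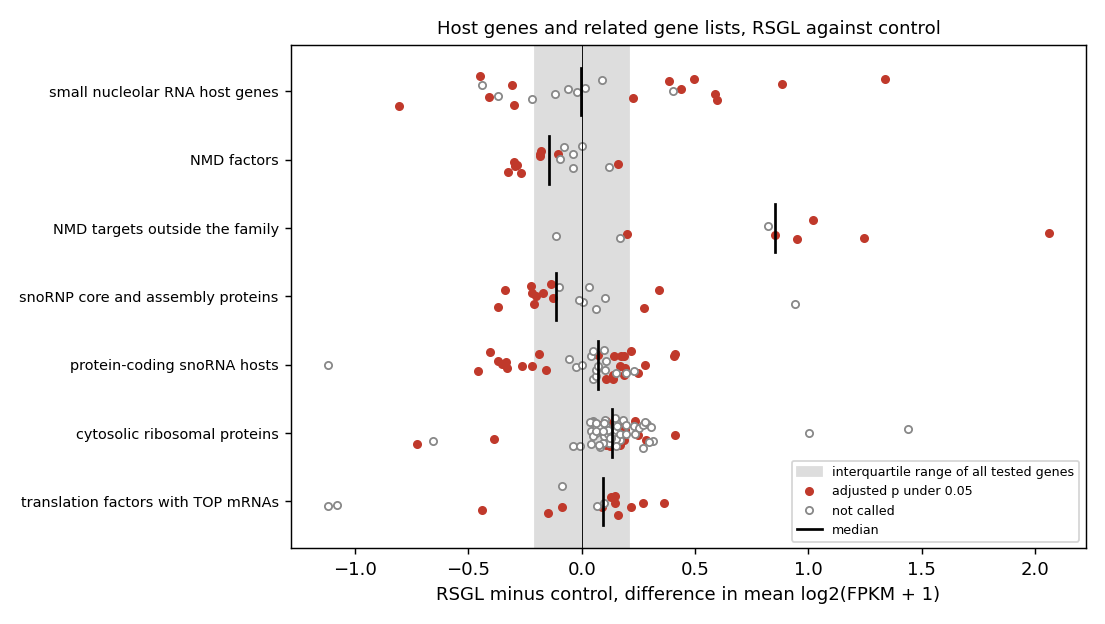
RSGL minus control difference in mean log2(FPKM + 1) for the 22 tested host genes and for 6 lists of related genes, with the median of each as a black bar and the interquartile range of all tested genes in grey; vertical position within a list is only for display. NMD targets outside the family have a median of 0.85 and the host genes one of -0.0041.

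The deposited names predate some SNHG symbols, and 7 genes of the table carry an SNHG number only in current RefSeq, so the name rule leaves them out. LRRC75A-AS1, now SNHG29, averaged 327 ± 15.9 FPKM with RSGL, 245 ± 6.68 FPKM with BSGL and 223 ± 23.4 FPKM in control, and its difference between RSGL and control was 0.56 (limma adjusted p 8.81e-05). Of the other 6, LOC105371743 (SNHG30) averaged 14.9 FPKM with RSGL and 14.6 FPKM in control and LINC00888 (SNHG33) 6.63 FPKM with RSGL and 5.28 FPKM in control, neither called, C6orf48 (SNHG32) was at 0.629 FPKM with RSGL and 1.29 FPKM in control and not called, and 3 were below the filter.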

How the data were processed

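The deposited table held FPKM per gene for 9 libraries, with gene length, position and biotype. Tools named in the submitters' processing notes are featureCounts 1.5.0-p3, DESeq2 1.16.1 and HISAT2 2.0.5, without roles or settings. The strand setting and annotation release are not given in the sources used here. The FPKM values deposited by the authors were whole multiples of 1 fragment per library once multiplied by gene length, 100% of values under 300 fragments within 0.01 of a whole number, so fragments could be recovered. Deposited coordinates were placed on GRCh38 because most matched member starts equal those of RefSeq GRCh38.p14. Gene length in the deposited table was used as given by the authors.

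The 12775 genes that reached 1 FPKM in 3 or more of 9 libraries were fitted as log2(FPKM + 1) with limma 3.58.1 in R 4.3.3, all 9 libraries in 1 model with trend and robust options, and p-values were adjusted by Benjamini-Hochberg over all tested genes. The fit was also run on simulated data with few changed genes and the same extra spread set for all genes. Those settings differ from these data, so that run does not measure the error rate of the calls here. Library groups came from the labels. In all, 20 alternatives were run. The members and lists were chosen with earlier results of these data known. Values are given per library for the 12 members of highest mean and those called with a difference of at least 0.5, and for each list the 3 called genes of largest difference with libraries that do not overlap are named. The labels do not say that replicate numbers pair libraries, and the main fit used no pairing. No library pair held identical values. Fragment counts have no molecular identifiers, so depth gives counting error only.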

Additional observations from a re-analysis of the deposited data

How the results depend on the processing

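Over 20 alternatives, the count of host genes called ranged from 11 to 14 for RSGL against control (13 as reported; 11 to 14 leaving out 1 library), was 0 throughout for BSGL against control, and ranged from 11 to 13 for RSGL against BSGL (11 as reported; 11 to 13 leaving out 1 library). No difference changed sign among the 13 host genes called for RSGL against control or the 11 called for RSGL against BSGL. Differences that were not called did change sign. For RSGL against control these were SNHG7 (0.0031 with quantile scaling; -0.0575 to 0.0135 leaving out 1 library) and SNHG25 (-0.0121 with a common sum of FPKM, -0.022 with quantile scaling; -0.11 to 0.26 leaving out 1 library). For BSGL against control they were SNHG8 (-0.0191 with a common sum, -0.0045 with quantile scaling, -9.8e-05 with limma-voom, -0.0233 with the length trend removed; -0.0545 to 0.0481 leaving out 1 library), SNHG17 (-0.00803 with a common sum; -0.0178 to 0.0706 leaving out 1 library) and SNHG3 (-0.0131 with a common sum; -0.0191 to 0.0494 leaving out 1 library). Leaving out 1 library also turned the BSGL sign of SNHG1 (-0.10 to 0.0075), SNHG19 (-0.056 to 0.403), SNHG15 (-0.0035 to 0.10), SNHG4 (-0.13 to 0.0089), SNHG11 (-0.0867 to 0.0341), SNHG9 (-0.37 to 0.18) and SNHG20 (-0.16 to 0.0045), and, for RSGL against BSGL, of SNHG9 (-0.55 to 0.0052) and SNHG20 (-0.0819 to 0.0224). The adjusted p of every difference that changed sign was at least 0.835. GAS5 stayed between 1.28 and 1.39 and ZFAS1 between 0.81 and 0.98, both called in all 20. With the replicate number as a block 12 host genes were called for RSGL against control (6 higher, 6 lower), 0 for BSGL against control and 11 for RSGL against BSGL. Same-numbered libraries correlated between -0.21 and 0.12 in their deviations. Differently numbered libraries were not correlated for comparison, so this cannot decide whether the numbers mark shared cultures. The count of all genes called for BSGL against control, 11 as reported, was 31 with limma-voom on recovered fragments, 0 with no filter on low values, with a common sum of FPKM, without the trend and robust options, with the replicate block and with only the compared groups fitted, and 0 to 8 leaving out 1 library. The count of cytosolic ribosomal protein genes called, 26 as reported, was 16 with quantile scaling and 13 to 43 leaving out 1 library. The causes were not tested. The fit with each library's trend on gene length removed was chosen after seeing the data. Short members and those under about 30 fragments limit what 3 libraries a group can show.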
